A study of Mus musculus with 4 samples.

Results

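The 243 ribosomal protein pseudogenes and retrogenes described here are the genes on chromosomes 1 to 19 whose symbols begin with Rpl or Rps and end in -ps, with or without a number, or in rt. They were taken by name from the 49671 genes of the deposited tables. The rule uses no measured value, but it was set with earlier results of these data known. Of these, 153 are copies of large-subunit genes and 90 of small-subunit genes, under 58 parent names, and 57 of those names have a gene of their own in the tables. The GENCODE M21 annotation (mm10) lists 242 of them, 228 as processed pseudogenes, 7 as transcribed processed pseudogenes and 7 as protein coding, and 236 consist of a single exon block. Their exonic length runs from 151 to 1323 bases with a median of 462.5. Only Rpl37rt and Rps27rt carry the ending rt, for retrogene.

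The samples are 4 biological replicates of 1 group, T cells enriched by column for CD3+ from the spleens of female hybrid mice. The mothers were C57BL/6 mice heterozygous for a deletion of Xist, the gene whose RNA silences an X chromosome, and the fathers were Mus musculus castaneus. The alleles of X-linked genes are skewed by that deletion, and chromosomes 1 to 19 were used here. Every culture was stimulated for 48 hours, with anti-CD3 bound to the plate (1 µg/ml) and anti-CD28 in solution (10 µg/ml), and held 2.5 µM IMD-0354, an inhibitor of IKKβ in the NF-κB pathway. No other condition is among the samples, so the values describe this condition alone.

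Processed pseudogenes arise when a messenger RNA is copied into DNA by reverse transcriptase and inserted elsewhere in the genome. Such a copy lacks introns and usually a promoter, and it decays by mutation unless selection keeps its reading frame, in which case it is called a retrogene. Ribosomal protein genes, among the most strongly transcribed genes of a dividing cell, have left more such copies in mammalian genomes than most other gene families, and many copies still resemble their parent so closely that short reads from either can match both.

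Allelic reads, those that could be assigned to C57BL/6 or Castaneus, numbered 30539711 to 34992012 per replicate. All 10 T cell markers were above 1 RPKM (reads per kilobase, scaled to library size) and summed to 586 to 660 RPKM per replicate. B cell markers summed to 4.36 to 9.98, myeloid markers to 19.7 to 77.3, nearly all from Lyz2, and erythroid markers to 1.55 to 8.35 RPKM, and 4 of 4 in each of these 3 lists were detected. Their part in the results below was not tested.

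A minority of the members was detected, and a few reached the level of their parent genes. At a mean of at least 0.1 RPKM, 94 of 243 members (38.7%) were detected, against 35.7% of all autosomal genes, and 59 had at least 1 RPKM (24.3%, against 24.4%). In 105 members the value was 0 in every replicate. Among the 59, 32 had at least 10 RPKM and 15 at least 100. The summed RPKM of all members was 4024, 4090, 4625 and 5009 in replicates 1 to 4, which was 16.4% ± 0.656 of the sum over the parent genes (SD, n = 4). The 10 highest members held 68.5% ± 2.61 of that sum, so few members made up most of the family's level. Parent genes had a median of 285 RPKM, from 0.12 for Rps4l to 2233 for Rps24.

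The highest members were copies of small-subunit genes with a higher RPKM than the parent. Rps19-ps6 (chr12:110898114-110898551), a copy of the gene for ribosomal protein S19, had 565, 616, 754 and 815 RPKM in replicates 1 to 4, a mean of 687 ± 116, while Rps19 itself had 138 ± 16.7 (SD, n = 4, as for all values after ±). Rps6-ps4 (chr2:75191073-75191822), a copy of the gene for S6, the ribosomal target of S6 kinases, had 671, 603, 692 and 588 RPKM, while Rps6 had 243 ± 18.3. In both cases each replicate of the copy lay above every replicate of the parent. All 750 bases of Rps6-ps4 and all 453 of Rps13-ps2 are identical to the parent transcript, and Rps19-ps6 differs from it at 5 of 438, so these RPKM values depend on how reads matching both genes were counted, and RNA of the copy and of the parent cannot be told apart by them. Rps13-ps2 had 172 ± 15.2 RPKM, above the parent in 4 of 4 replicates, and Rps13-ps1 141 ± 7.86, above it in 3 of 4, with Rps13 at 130 ± 11.6. Rpl13a-ps1 (chr19:50030124-50030735), the only copy of a large-subunit gene above its parent, had 43.7, 34.9, 40.7 and 29.6 RPKM, and Rpl13a 18.9, 22.1, 21.3 and 24.8. In all, 7 members had a higher mean RPKM than the parent, 6 of them in every replicate.

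Rps19-ps1 and Rps19-ps2, on chromosome 14, gave nearly the same values. Rps19-ps1 had 260, 324, 305 and 338 RPKM and Rps19-ps2 261, 323, 306 and 338, and both were above Rps19 in 4 of 4 replicates. Their 438 bases are identical to each other and differ from the parent at 8 positions, so reads cannot be told apart between them by sequence. Coding bases 287 to 406, which hold 5 of the 8 differences, are shown for the copy and the parent because they are what a read would need to cover, with the differing bases in capitals.
Rps19-ps1: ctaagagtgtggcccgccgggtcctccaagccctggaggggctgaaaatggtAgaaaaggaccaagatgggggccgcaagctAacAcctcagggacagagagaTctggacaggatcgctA
Rps19: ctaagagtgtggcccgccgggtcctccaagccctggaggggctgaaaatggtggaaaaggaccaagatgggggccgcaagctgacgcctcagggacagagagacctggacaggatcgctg
The sources used here do not give how reads that match several places were treated. Among all members, 27 pairs of copies of the same parent shared at least 99% of bases over at least 80% of the shorter copy.

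**Figure D1:**
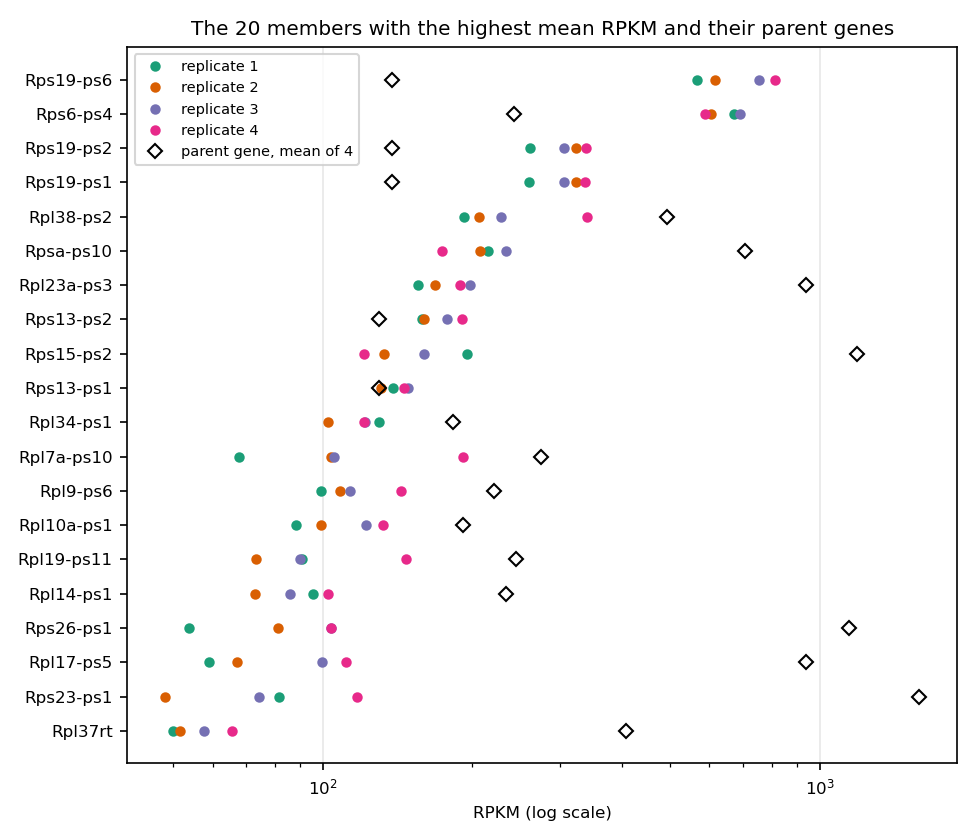
RPKM (log axis) of the 20 members with the highest mean, 1 point per replicate, with the mean of the parent gene as an open diamond. Rps19-ps6, Rps6-ps4, Rps19-ps2 and Rps19-ps1 lie to the right of their parents, while Rps15-ps2 with 152 RPKM lies far to the left of Rps15 with 1190 RPKM.

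The other members among the 10 highest were below their parents. Rpl38-ps2 had 193, 207, 228 and 340 RPKM in replicates 1 to 4 (49.0% of Rpl38), with replicate 4 the highest for both genes. Rpsa-ps10, a copy of the gene for the laminin receptor protein of the small subunit, had 207 ± 25.1 RPKM (29.3% of Rpsa), Rpl23a-ps3 177 ± 19 (18.9% of Rpl23a) and Rps15-ps2 152 ± 32.7 (12.8% of Rps15). All 10 of these highest copies begin with a start codon and have no stop before the parent's number of codons, in 3 of them with no stop within the gene model. This reading of an open frame was chosen after the values were seen. Of 26 members with enough allelic reads and a sense alignment, 11 had such a frame. The 10 highest had 0 to 10 coding substitutions and 0 gap bases, and the 26 had up to 53 substitutions. These sets were not matched for likeness to the parent, so no contrast is drawn. Among the retrogenes, Rpl37rt had 50, 51.5, 57.6 and 65.7 RPKM (13.8% of Rpl37) and Rps27rt 16.5, 16.8, 18.8 and 26 RPKM (2.39% of Rps27).

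Members that were detected resembled their parents more closely than members that were not. A match to the parent transcript was found for 239 members, with a median identity of 96.3%. Of the 15 members identical to the parent over the aligned stretch, 13 were detected, and the median of the 15 was 19.5 RPKM. Of 72 with 98% to under 100% identity 55 were detected, of 48 with 95% to under 98% 17, and of those with under 95% 9 (8.65%), with a median of 0 RPKM in that last class. These are counts over genes that share parents and reads, and no test was made.

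Few members had reads that could be assigned to an allele. Of 243 members, 149 had no allelic read in any replicate, 67 had some but a mean under 20 per replicate, and 27 reached the mean of 20 used for all allelic values below. Among the 59 members with at least 1 RPKM, 36 stayed under 20 allelic reads (61%), against 7.24% of all autosomal genes at that level. Of the 59, 15 had none (25.4%, against 3.04%). RPKM is scaled to length, and this comparison was not matched for length. Members at the top of the RPKM order were among those under 20 allelic reads. Rps19-ps6 had a mean of 3 allelic reads per replicate at 687 RPKM, Rps6-ps4 0.75 at 638 RPKM, and Rps19-ps1, Rps19-ps2, Rpsa-ps10, Rpl23a-ps3, Rps13-ps2 and Rps15-ps2 none. Of the 15 members with at least 100 RPKM, 12 could not be assigned.

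Members with at least 1 RPKM were also grouped by how much of the copy occurs elsewhere in the transcriptome, in classes chosen after the values were seen. Each member was split into all its 50-base stretches, and the share of stretches that also occur in a transcript of another gene was counted. Of 14 members with at least 1 RPKM and under 50% of stretches shared, 10 reached 20 allelic reads, with a median of 69.25 reads. Of 9 with 50% to under 75% shared, 5 did, with a median of 60.5. Of 21 members with 75% to under 100% shared, 4 did, with a median of 2.5, and of 15 with all stretches shared, 4 did, with a median of 0.5. The median RPKM of the 4 classes was 3.71, 2.18, 31.1 and 84.2. Most members in the first 2 classes reached 20 allelic reads and most in the last 2 did not, and the difference was not tested. Just inside the minimum lay Rpl7a-ps2 with 20.75 reads and just outside it, named for that reason, Rpl17-ps10 with 17 reads, all of them from Castaneus, at 45 RPKM.

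**Figure D2:**
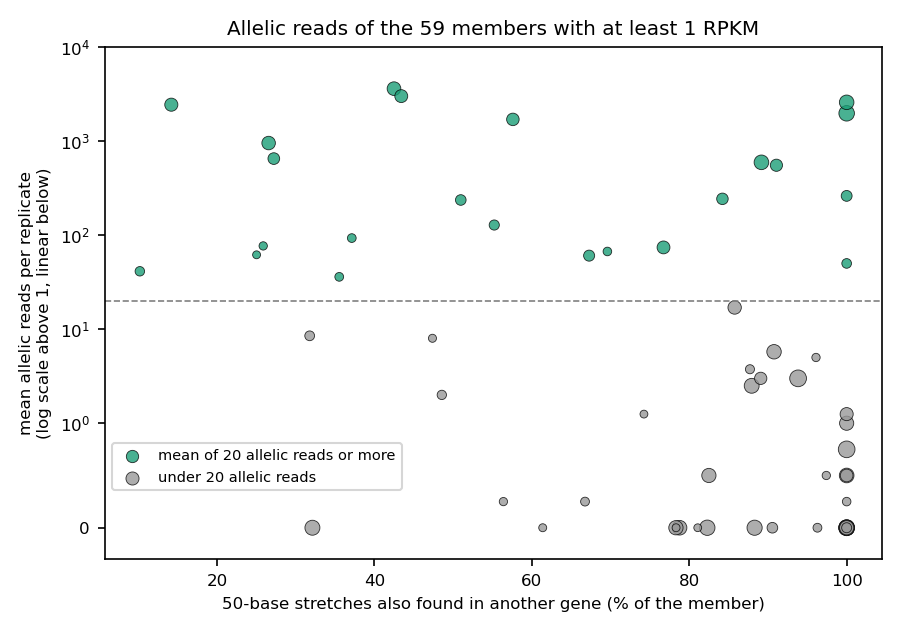
Mean allelic reads per replicate against the percentage of 50-base stretches that also occur in another gene, for the 59 members with at least 1 RPKM; the area of a point grows with RPKM and the dashed line is the minimum of 20. Large grey points, members with high RPKM and under 20 allelic reads, gather at the right, where most of the copy occurs elsewhere.

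Where reads could be assigned, most members were read almost wholly from a single allele. Of the 27 members tested, 18 were called unequal (66.7%, against 22.9% of 13627 autosomal genes; edgeR's quasi-likelihood test of the Castaneus to C57BL/6 ratio against 1, two-sided, Benjamini-Hochberg over all of these genes, FDR of 5%). Castaneus was higher in 10 (37%, against 10.4%) and C57BL/6 in 8 (29.6%, against 12.5%), and each of the 18 lay on its side in 4 of 4 replicates. The mean Castaneus share was under 10% or over 90% in 18 of the 27 members (66.7%), in 4.49% of all autosomal genes and in 0 of 50 autosomal parent genes. Summed over all members, the Castaneus share was 58.1%, 55.8%, 51.2% and 50.3% in replicates 1 to 4, and the median log2 ratio of the 27 was -0.05, as for all autosomal genes. In 9 members not a single read came from the other allele in any replicate (33.3%, against 1.57% of all autosomal genes), 7 of them from Castaneus only (25.9%, against 0.998%) and 2 from C57BL/6 only (7.41%, against 0.572%). By identity to the parent, 5 of 5 tested members at 100% were called and 7 of 9 at 98% to under 100%. At 95% to under 98% 5 of 8 were called, and under 95% 1 of 5. How reads matching both a parent and a copy were counted is not given, and their part in the members' shares was not tested. Members and all autosomal genes were not matched for read depth here. Among autosomal genes with 20 to 39 reads in a replicate, 13.5% to 84.2% were read from a single allele in that replicate.

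**Figure D3:**
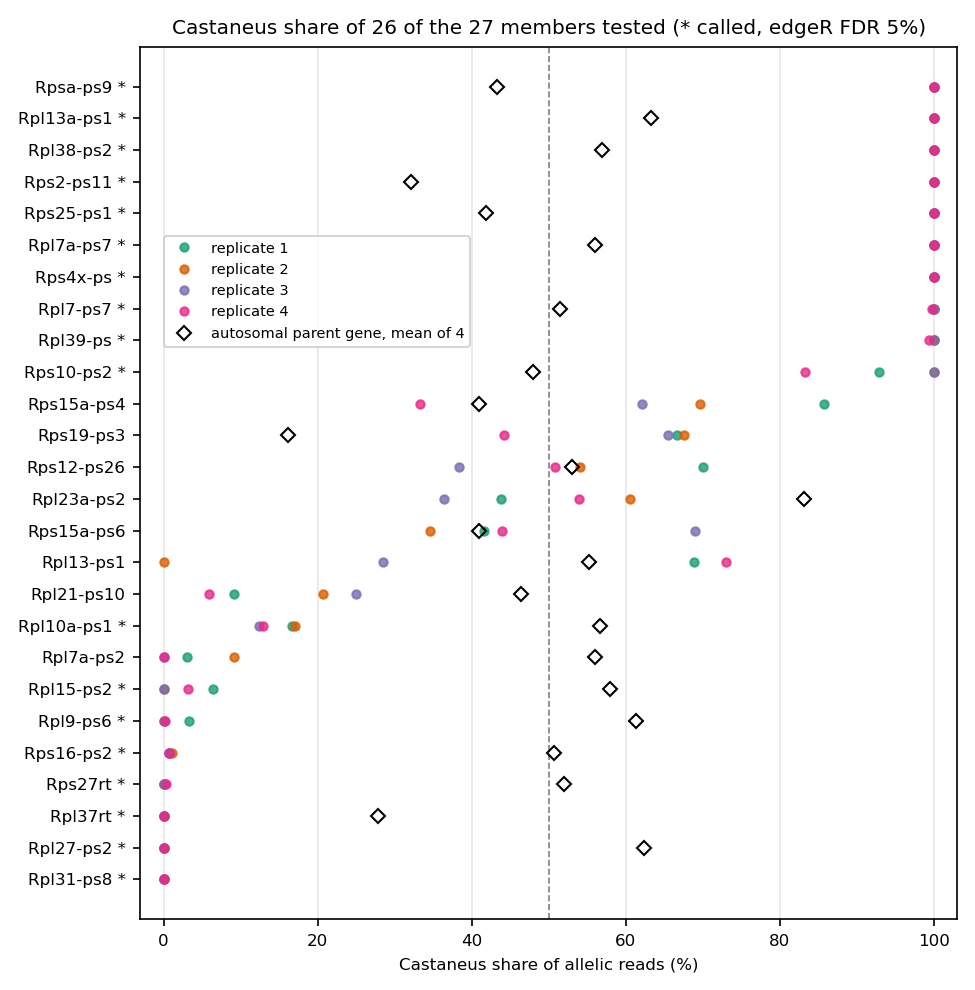
Castaneus share of allelic reads for 26 of the 27 members tested, 1 point per replicate, with the mean share of the autosomal parent gene as an open diamond and 50% as a dashed line; an asterisk marks a call. Points pile up at 0% and 100% at the ends of the order, while the diamonds lie between 16.2% and 83.1%.

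Castaneus alone was read in 4 replicates at Rpsa-ps9, Rpl13a-ps1 and Rpl38-ps2, the members with the most such reads. Rpsa-ps9 (chr2:28477166-28478050), a second copy of Rpsa, had 4008, 2978, 2500 and 2530 Castaneus reads and 0 C57BL/6 reads. With 3 counts over the group as the limit, the C57BL/6 share of reads can be at most 0.025%. The Castaneus reads are then at least 4005-fold higher (counting error only, with every read taken as independent). Reads per molecule were estimated under equal alleles at 7.19 to 22.6, as given below. Limits by molecule are wider, for this and for the other fold values. Rpl13a-ps1 had 3054, 2040, 2770 and 1880 Castaneus reads and 0 C57BL/6 reads, at least 3248-fold. Their adjusted p was 3.49e-08 and 7e-08. Rpsa, on chromosome 9, had 43.2% ± 0.743 of its reads from Castaneus and Rpl13a, on chromosome 7, 63.3% ± 1.89 (SD, n = 4), so both parents were read from both alleles. Rpsa-ps9 differs from the parent at 15 of its coding bases and its frame closes after 48 of 295 codons, while Rpl13a-ps1 differs at 29 and keeps all 203 codons. The 120 coding bases of Rpsa-ps9 with the most differences, 190 to 309 of Rpsa, show where the reference copy and the parent differ (capitals mark bases that differ from the parent).
Rpsa-ps9: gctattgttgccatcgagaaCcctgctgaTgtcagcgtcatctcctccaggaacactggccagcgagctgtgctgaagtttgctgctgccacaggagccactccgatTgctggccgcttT
Rpsa: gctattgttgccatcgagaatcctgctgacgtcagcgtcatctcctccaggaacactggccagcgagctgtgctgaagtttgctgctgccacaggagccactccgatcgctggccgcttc

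Rpl38-ps2 (chr6:140746960-140747172, minus strand) had 1320, 1362, 1830 and 3378 Castaneus reads and 0 C57BL/6 reads. That is at least 2630-fold higher by reads taken as independent (adjusted p = 1.38e-07, edgeR). Rpl38, on chromosome 11, which encodes a large-subunit protein, had 56.9% ± 1.34 from Castaneus. In the reference genome, which is that of C57BL/6, the copy is identical to the whole coding sequence of Rpl38, shown here once for both because no base of the 213 separates them.
Rpl38-ps2 and Rpl38: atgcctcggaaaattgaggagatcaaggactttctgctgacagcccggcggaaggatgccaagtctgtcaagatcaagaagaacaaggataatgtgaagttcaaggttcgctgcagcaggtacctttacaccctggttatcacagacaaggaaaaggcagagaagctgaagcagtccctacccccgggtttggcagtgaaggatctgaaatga

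Rpl7-ps7, with 1526, 1472, 2162 and 1633 Castaneus reads, had 4 C57BL/6 reads in replicate 4 and 0 in the others, and Rpl39-ps, with 186, 162, 274 and 321, had 2 in replicate 4 and 0 in the others (adjusted p = 2.73e-08 and 9.05e-06). Rpl7, whose copy Rpl7-ps7 is, had 51.5% ± 2.6 from Castaneus. Rps10-ps2 had 92.9%, 100%, 100% and 83.3% of its reads from Castaneus (adjusted p = 0.0279), with Rps10 at 48% ± 2.08.

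The remaining members read from Castaneus only had few reads. Rps2-ps11 had 102, 96, 30 and 54 reads, Rps25-ps1 68, 26, 78 and 96, Rpl7a-ps7 35, 12, 40 and 37 and Rps4x-ps 12, 14, 36 and 51. A C57BL/6 share of up to 1.06%, 1.12%, 2.42% and 2.65% is allowed by these counts. These limits cover counting error alone. Among all autosomal genes with 20 to 39 reads in a replicate, 36.4%, 84.2%, 45.2% and 13.5% were read from a single allele in replicates 1 to 4, which under equal alleles corresponds to 11.4, 22.6, 13 and 7.19 reads per molecule. With counts divided by these reads per molecule, these 4 members stayed called in edgeR. The adjusted p was 9.87e-05 for Rps2-ps11, 3.49e-05 for Rps25-ps1, 0.0063 for Rpl7a-ps7 and 0.00634 for Rps4x-ps. The part of few molecules in the counts of 0 C57BL/6 reads was not tested further. Leaving out replicate 1, 3 or 4 ended the calls of Rps10-ps2, Rpl7a-ps7 and Rps4x-ps in edgeR. Rps10-ps2 then had an adjusted p of 0.0876, 0.101 and 0.0502, with 5.76e-06 as the lowest over its alternatives. For Rpl7a-ps7 these were 0.127, 0.108 and 0.162, with 2.04e-05 as the lowest, and for Rps4x-ps 0.109, 0.128 and 0.243, with 7.96e-05.

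C57BL/6 alone, or nearly alone, was read at both retrogenes. Rpl37rt (chr5:115102923-115110268), annotated as a transcribed processed pseudogene with 3 exon blocks, had 3294, 2832, 4160 and 4137 C57BL/6 reads and 0, 0, 0 and 2 Castaneus reads (log2 ratio -12.48 with a standard error of 0.25, adjusted p = 3.82e-10, edgeR). The size of this ratio rests on the 2 Castaneus reads of replicate 4, and that standard error does not measure its uncertainty. DESeq2 gave -13.05 with a standard error of 1.26. Rpl37 had 27.9% ± 2.16 from Castaneus. Rpl37rt holds the complete frame of 97 codons with 1 base changed in 294, the last of coding bases 130 to 249 below, which is shown because it is the only letter that separates the coding parts.
Rpl37rt: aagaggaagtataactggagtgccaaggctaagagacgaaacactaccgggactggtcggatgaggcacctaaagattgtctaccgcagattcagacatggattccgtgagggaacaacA
Rpl37: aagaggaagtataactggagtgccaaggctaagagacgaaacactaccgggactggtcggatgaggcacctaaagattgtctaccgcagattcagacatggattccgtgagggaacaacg
Rps27rt (chr9:114982366-114982739), annotated as protein coding, had 474, 456, 608 and 672 C57BL/6 reads and 0, 0, 0 and 2 Castaneus reads (adjusted p = 2.97e-07). Rps27 had 52% ± 2.59 from Castaneus. The 84 codons of Rps27rt carry no substitution relative to Rps27.

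Rpl27-ps2 (chr11:101939501-101939899) was the member with the most reads among those never read from Castaneus. It had 867, 839, 925 and 1179 C57BL/6 reads, at least 1270-fold higher by reads taken as independent (adjusted p = 8.28e-07, edgeR). Its parent Rpl27, on the same chromosome, leaned the other way, with 62.3% ± 0.228 from Castaneus. The copy has 14 substitutions and 12 gap bases in the coding part, of which 7 substitutions lie in coding bases 64 to 183.
Rpl27-ps2: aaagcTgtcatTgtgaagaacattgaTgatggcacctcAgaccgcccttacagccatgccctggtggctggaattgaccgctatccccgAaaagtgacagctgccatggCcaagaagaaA
Rpl27: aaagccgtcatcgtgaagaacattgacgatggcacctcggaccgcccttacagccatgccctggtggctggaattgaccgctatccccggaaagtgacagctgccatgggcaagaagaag
Rpl31-ps8, identical to Rpl31, had 30, 32, 46 and 92 C57BL/6 reads and no Castaneus read, which allows up to 1.5%. Its call (adjusted p = 0.0143) did not hold in edgeR when replicate 1 or replicate 4 was left out (adjusted p = 0.051 and 0.119), with 4.08e-08 as the lowest over the alternatives. Rpl31 had no allelic read in any replicate, at 151 RPKM.

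The other 4 members called higher from C57BL/6 kept some Castaneus reads. Rps16-ps2 had 2 Castaneus reads in each replicate beside 302, 178, 262 and 295 C57BL/6 reads. Rpl9-ps6, annotated as protein coding, had Castaneus shares of 3.36%, 0%, 0% and 0.246% at 116 RPKM, and Rpl15-ps2 6.44%, 0%, 0% and 3.12%. Rpl10a-ps1 (chr1:64993951-64994604) was the only member called with an intermediate share. It had 1892, 1490, 2606 and 2858 C57BL/6 reads and 380, 308, 368 and 424 Castaneus reads, shares of 16.7%, 17.1%, 12.4% and 12.9% (log2 ratio -2.52 with a standard error of 0.12, adjusted p = 3.01e-07), while Rpl10a had 56.6% ± 0.469. The copy equals the parent over all 654 coding bases, of which the first 120 are shown as an instance of a stretch in which no reference base separates the copies.
Rpl10a-ps1: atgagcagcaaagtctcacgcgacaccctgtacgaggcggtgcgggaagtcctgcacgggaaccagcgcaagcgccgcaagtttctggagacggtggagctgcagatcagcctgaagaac

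Members lying in introns of transcribed genes on the same strand had intermediate shares, as did the host genes. Of the 27 members 11 lie in introns and 16 overlap no gene. In the 5 members within a gene of at least 1 RPKM read on the same strand, mean shares ran from 42.6% to 53.3%, and 0 were called in edgeR, with 1 at an unadjusted p under 0.05 and 1 called by DESeq2's Wald test. Of the 16 members without an overlapping gene 13 were called, and of the 3 in genes of at least 1 RPKM on the opposite strand 3. The difference between these classes was not tested, and the classes were not matched for read depth.

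Rps15a-ps6 in Nudcd3, which encodes a cochaperone of dynein, had 47.3% ± 15 with its host at 51.1% ± 1.92. Rpl23a-ps2 in Rabep1, an endosome fusion gene, had 48.7% ± 10.7 with its host at 50.4% ± 2.92 and its parent Rpl23a at 83.1% ± 2.87. Rps12-ps26 in Nol11, a gene of ribosome biogenesis, had 53.3% ± 13 with its host at 47.3% ± 3.2. Rpl13-ps1, which lies antisense to its parent's sequence in the deubiquitinase gene Usp32, had 68.9%, 0%, 28.4% and 73% with its host at 56.5% ± 5.48. In these 4 members the spread over replicates was larger than that of the host, and all but Rps15a-ps6 are named after their values were seen. The 4 hosts had means of 2090.5 to 2970 allelic reads, and members and hosts were not matched for read depth. By contrast, Rps19-ps6 also lies in an intron on the same strand, that of Tecpr2, which had 1.99 RPKM against 687 for the copy.

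On the opposite strand of the host the shares stood apart from it. Rpl15-ps2 in Tcf12, a transcription factor gene, had 2.39% ± 3.07 where the host had 52.1% ± 0.712, and Rps2-ps11 in Usp4 had 100% where the host had 56.1% ± 1.3. In both, each replicate of the member lay outside the range of the host. The sources used here do not say whether counting used strand. If it did not, reads of a host's intron and of a copy on either strand cannot be told apart. If it did, this holds only for copies on the host's own strand.

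**Figure D4:**
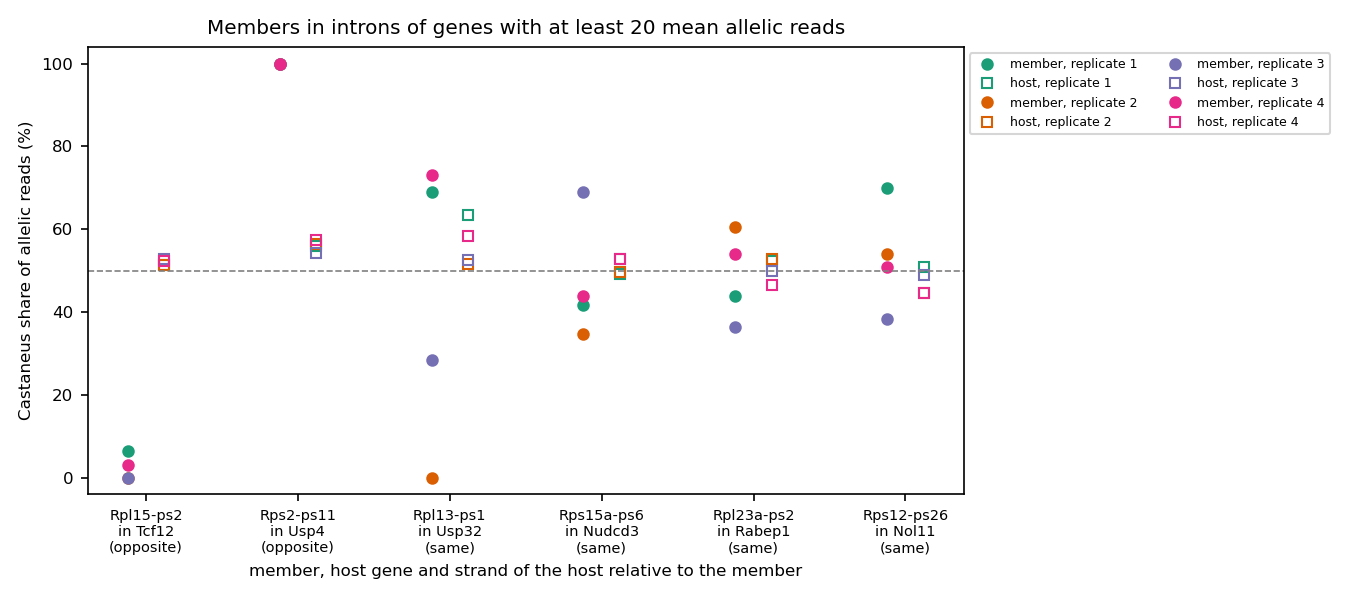
Castaneus share of allelic reads of 6 members in introns of genes with at least 20 mean allelic reads (filled circles) and of the host genes (open squares), 1 point per replicate, with the relative strand below each name. The 2 members on the opposite strand, Rpl15-ps2 and Rps2-ps11, lie away from the host, and the ranges of the 4 on the same strand overlap that of the host.

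The members not called outside these introns were Rps15a-ps4 with 85.7%, 69.7%, 62.1% and 33.3% from Castaneus, Rps19-ps3 with 66.7%, 67.5%, 65.5% and 44.2%, Rpl21-ps10 with 9.21%, 20.7%, 25% and 5.95%, and Rpl7a-ps2 with 3.03%, 9.09%, 0% and 0%, named here after their values were seen. Rpl21-ps10 (adjusted p = 0.0861) and Rpl7a-ps2 (adjusted p = 0.0802) lay below 50% in 4 of 4 replicates without passing in edgeR. Both passed when replicate 2 was left out (adjusted p = 0.0475 and 0.0345) and by DESeq2 (adjusted p = 0.000763 and 0.00246), and their highest adjusted p over the alternatives was 0.409 and 0.332. Fitted log2 ratios of members with 0 reads on an allele depend on the prior count and are not given.

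Most members lay on a single side of the parent in every replicate. In 24 members both the copy and an autosomal parent had enough allelic reads. The share of the copy was above that of the parent in 4 of 4 replicates in 9 and below it in 4 of 4 in 11. Mean shares of these parents ran from 16.2% to 83.1%. For members read almost wholly from a single allele the side therefore follows from that, and is not a separate result. The other 4, Rps15a-ps4, Rps15a-ps6, Rpl13-ps1 and Rps12-ps26, lay on either side. The difference in share ran from -62.3 percentage points for Rpl27-ps2 to 67.9 for Rps2-ps11, with SDs over replicates of 0.228 and 1.32. Rpl27-ps2 was at 0% and Rps2-ps11 at 100% in every replicate, so these SDs are those of the parents alone. No pair was tested singly, and an exact two-sided sign-flip permutation test over 4 replicates cannot reach 0.05. Rps4x-ps and Rpl39-ps have parents on the X, Rps4x and Rpl39, where the Xist deletion skews the alleles, and were not set against them.

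The parent genes themselves were often unequal, by less than the members. Of 50 autosomal parents tested, 20 were called higher from Castaneus and 18 from C57BL/6, with mean shares from 16.2% to 85.7%. Over 13627 autosomal genes these calls were 1418 (10.4%) and 1700 (12.5%). The comparison is not matched for read depth: these parents had means of 199 to 148196 allelic reads, and the autosomal genes begin at 20. The lowest was Rps19 with 16.2% ± 0.89 and the highest Rps6 with 85.7% ± 0.689, the parents of the members with the highest RPKM. Rpl29 had 17.5% ± 6.04 and Rpl35a 18.1% ± 1.98, with copies that summed to 0.0326 and 5.66 RPKM (named after their values were seen). Rps13, whose copies summed to 315 RPKM, had 47% ± 2.33 and was not called. Rpl23a had 83.1% ± 2.87, and Rpl19, which has Rpl19-ps11 at 100.3 RPKM among its copies (named after its value was seen), 83% ± 1.99. The median distance from equality was 0.47 on the log2 scale for parents and 0.35 for all autosomal genes. Reads that match a parent and a copy were not separated, and their part in these shares was not tested.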

How the data were processed

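RNA of 4 libraries, labelled as separate biological replicates of 1 group, was measured. The authors deposited whole-number counts of reads per gene for each allele, and RPKM values per gene that join the alleles. STAR 2.7.1a, featureCounts and mm10 are named in the submitters' processing notes; the sources used here do not give allele assignment, strand or the treatment of multiply matching reads. Of 159 allele counts above 0 in the members tested, 75.5% were even.

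Both allele counts of each replicate were fitted over 13627 autosomal genes with a mean of at least 20 allelic reads in edgeR 4.0.16 (R 4.3.3; glmQLFit and glmQLFTest), and the replicate was a block, since both alleles come from the same animal; an allele's library size was its autosomal total. Standard errors of edgeR ratios are the log2 ratio over the root of F. DESeq2 1.42.0 was an alternative. Positions, transcripts and all printed sequences came from GENCODE M21 (mm10); members were aligned to parent transcripts with blastn 2.17.0, and the best match is given. The members, the parent and marker lists and the rule for named genes (10 highest by RPKM, called members, members read from a single allele, both retrogenes, and members with at least 100 reads that were not called) were chosen with earlier results of these data known. The limit for a count of 0 is 3 counts, with every read taken as independent. Python 3.11.15, pandas 2.3.3 and matplotlib 3.10.9 were used. The 50-base stretches, identity classes, host classes and open-frame reading were chosen after the values were seen. Alternatives changed the read minimum, scaling, block and tool, or left out a replicate. The single values of 1 member, which stays in the counts, and some sequences are not reported here.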

Additional observations from a re-analysis of the deposited data

Results flagged for a closer look

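Of 49 sets of 4 values (RPKM and Castaneus share of the members named by the rule), 6 had a replicate far from the other 3 by Dixon's test at 95%, where chance gives about 1 in 20 for values that vary freely. In replicate 4 the Castaneus share was 0.0483% at Rpl37rt and 0.297% at Rps27rt, against 0% in the other replicates, and 99.4% at Rpl39-ps and 99.8% at Rpl7-ps7, against 100%. These rest on 2 to 4 reads of the rarer allele, and where the other 3 replicates are all at 0% or 100%, any such read meets the criterion, so that chance rate does not hold for these 4. Rpl9-ps6 had 3.36% in replicate 1, from 10 reads, against 0% to 0.246%. The RPKM of Rpl7a-ps7 was 0.162 in replicate 2, against 0.417 to 0.463 in the others.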

How the results depend on the processing

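The 18 calls among the members became 14 to 20 when a replicate was left out, and 16 to 21 under the other alternatives, with 10 higher from C57BL/6 and 10 from Castaneus, 20 in all, without the replicate block. Calls higher from Castaneus numbered 7 to 10 and from C57BL/6 7 to 11 over all of these. The count read from a single allele was 9 to 13 without a replicate, highest without replicate 4. It was 11 of 31 members with a minimum of 10 allelic reads and 7 of 22 with 50. Where up to 1% of reads could come from the other allele it was 15 of 27. Shares over all autosomal genes under these settings are not given, so these counts have no background. Members detected numbered 67 at 0.5 RPKM, 59 at 1 RPKM and 138 without a minimum, and 91 to 95 without a replicate. Members on a single side of the parent numbered 18 to 21. Of 22 members followed singly, 14 kept their direction and their side of the threshold in every alternative that could be fitted. The log2 ratio of Rps15a-ps6, not called, changed sign on reads divided by the reads per molecule (0.021) and ran from -0.56 to 0.11 when a replicate was left out, positive without replicate 2. Rpl21-ps10 passed in 6 of 13 alternatives and Rpl7a-ps2 in 4 of 11. Over all autosomal genes, 1418 were called higher from Castaneus and 1700 from C57BL/6, against 2091 and 2673 by DESeq2 and as few as 908 and 1035 without a replicate. Without the replicate block these were 1151 and 1299, and among the 27 members tested only the calls of Rpl21-ps10 and Rpl7a-ps2 changed, both of which passed without it (adjusted p = 0.0372 and 0.027, edgeR). Members with under 20 allelic reads, among them 12 of the 15 with at least 100 RPKM, had too few assignable reads for an allelic value, and deeper sequencing was not among the alternatives.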

Other observations

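A further 35 genes with such names lie on other chromosomes and were not among the members. On the X, Rps2-ps13 had 82.5 ± 12.6 RPKM and no allelic read, Rpl3-ps1 had 27.5 ± 5.76 RPKM and C57BL/6 reads of 15, 8, 6 and 83 beside Castaneus reads of 0, 0, 7 and 0, and Rps12-ps1 had 2.29 ± 0.523 RPKM, C57BL/6 reads of 61, 0, 61 and 58 and no Castaneus read (SD, n = 4).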
